A study of Rattus norvegicus with 4 samples.

Results

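The genes described are the vascular endothelial growth factor (VEGF) ligands Vegfa, Vegfb, Vegfc and Pgf, the VEGF receptors Flt1, Kdr and Flt4, and the neuropilins Nrp1 and Nrp2, in cultured rat aortic smooth muscle cells. They were chosen by name: every probe set annotated to exactly 1 gene symbol, that symbol being one of these 9, was taken. All 9 genes of the 12922 measured were found, on 15 of the 23707 probe sets tested, and 5 of the 9 had more than 1 probe set. The cells had been grown in 10% serum for 24 h and then kept for 72 h without serum and insulin. Both groups shared this starvation. One group received PDGF-BB, the B-chain dimer of platelet-derived growth factor and a mitogen of smooth muscle cells, at 30 ng/mL for 3 h, and the other its vehicle, a bovine albumin solution in dilute acetic acid, for the same time. Each group had 2 Affymetrix arrays, and the series set out to find early genes of the change in smooth muscle phenotype. Whether the 2 arrays of a group stand for separate cultures is not stated in the labels, and the p-values therefore reflect array-to-array spread that may be technical. The labels give neither the strain of the rats nor the passage of the cells.

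VEGF ligands are secreted dimers that bind receptor tyrosine kinases on the cell surface. Vegfa binds Flt1 (VEGF receptor 1) and Kdr (VEGF receptor 2), Vegfb and Pgf (placental growth factor) bind Flt1, and Vegfc binds Flt4 (VEGF receptor 3) and, once processed, Kdr. Kdr carries most of the mitogenic signal in endothelium, while Flt1 binds Vegfa tightly with weak kinase activity and also exists as a secreted form that traps ligand. Neuropilins are co-receptors with short cytoplasmic tails that bind certain VEGF isoforms and class 3 semaphorins. In the artery wall smooth muscle cells are a source of VEGF ligands, and the receptors are best known from the endothelium.

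Median intensities per array ran from 132, on PDGF-BB replicate 2, to 148, on vehicle replicate 2. Intensities are linear and have no detection calls. The highest intensity of 27 Bacillus control probe sets, 80.3, serves as a rough mark of background, and between 41.0% and 41.8% of probe sets per array lay at or below it. Across all probe sets 5779 of 23707, or 24.4%, passed an adjusted p of 0.05, the threshold used throughout (limma, Benjamini-Hochberg over all probe sets). That count fell to 1272 or 1383 when vehicle replicate 1 or 2 was dropped, and to 3017 when PDGF-BB replicate 2 was. All 10 smooth muscle markers measured had a mean above 80.3 in at least 1 group, among them Acta2 (smooth muscle alpha-actin) at 11624 with vehicle and 10877 with PDGF-BB, and Tagln (SM22-alpha) at 10546 and 10723. Of these 10, Lmod1, Smtn and Myh11 (the last on 1 of 2 probe sets) fell, 3 in all against 15.3% of all 12922 genes called lower. Smtn and Myh11 lost their calls in the fits lacking either vehicle array or PDGF-BB replicate 2. Fewer probe sets were called over the whole table in those fits too. Of the 15 endothelial markers measured, 12 had means at or below 80.3 in both groups. Pecam1, a junction protein of endothelium, was at 2.31 and 13.7 with vehicle and 6.56 and 7.65 with PDGF-BB. The summed intensity of the 15, which mostly reflects the brightest of them, was 861 and 846 with vehicle and 916 and 875 with PDGF-BB. Their median log2 fold change was 0.13, against -0.03 over all genes. It was 0.22 with an offset of 1 and 0.06 with an offset of 64. Of the 15, 1 was called higher and 1 lower, against 12.4% of all genes higher and 15.3% lower. The 3 with a mean above 80.3 in at least 1 group were Esam, Egfl7 and Erg (Egfl7 was named after its value was seen). Erg was below 80.3 with vehicle, at 63.4 and 57.6, and at 93.6 and 91.0 with PDGF-BB. With its vehicle values set to 80.3 it was at least 1.15-fold higher. Esam fell by 0.47 (SE 0.09) and Erg rose by 0.50 (SE 0.09) on the log2 scale, with limma adjusted p-values of 0.0249 and 0.0250, and both calls ended in each fit without 1 array (0.0552 to 0.178 for Esam and 0.0729 to 0.182 for Erg). Egfl7 did not pass (log2 fold change 0.22, SE 0.10, adjusted p 0.181 by limma). It passed under each of the 3 other scalings (0.0494, 0.0333 and 0.0281), where 2 or 3 endothelial markers were called higher in place of 1. Over all 23707 probe sets, calls higher also rose there. They numbered 3831 with array medians subtracted, 3287 after quantile normalization and 3656 after cyclic loess, against 2712. Of 9 macrophage and leukocyte markers and 8 adventitial fibroblast markers, 7 and 3 had means at or below 80.3 in both groups; the fibroblast marker Ly6c, named after its value was seen, rose by 0.44 (SE 0.09), a call that ended in each fit without 1 array (0.0564 to 0.194). The other way from Ly6c, the median log2 fold change of the 8 fibroblast markers was -0.15, against -0.03 over all genes. It was 0.03 without PDGF-BB replicate 2. The part of Esam, Egfl7, Erg and Ly6c in the results that follow was not tested. In a bulk culture, a change in the number of cells of a type and a change in RNA per cell cannot be told apart.

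After 3 h of PDGF-BB, Flt1, Nrp1 and Vegfc were higher and Vegfb was lower, while Vegfa, Pgf, Kdr, Flt4 and Nrp2 did not pass the test. Flt1 was at least 10.1-fold higher on its brightest probe set, a bound because its vehicle values lay below the background mark. That probe set was the brightest through its PDGF-BB values. With vehicle another Flt1 probe set (1369087_at) was brighter, at a mean of 139 against 50.8. It did not pass (log2 fold change 0.23, adjusted p 0.173 by limma). Nrp1 was 2.37-fold and Vegfc 1.66-fold higher, and Vegfb was 1.36-fold lower, on the log2(intensity + 16) scale, which understates the change of dim probe sets. By probe set, 5 of the 15 were higher, 1 was lower and 9 did not pass, against 11.4% higher and 12.9% lower over all 23707 probe sets. The groups did not overlap on 10 of the 15, and this held for 63.0% of all probe sets, so the separation of the groups is close to the background. With each gene represented by its brightest probe set, the median log2 fold change was 0.34 over the 9 genes and -0.03 over all 12922. The choice of the Flt1 probe set enters the median of the 9. The median of the 9 is the value of Flt4, which did not pass, and it was 0.22 or 0.17 without vehicle replicate 1 or 2, 0.23 or 0.12 without PDGF-BB replicate 1 or 2, and 0.17 with an offset of 64. Intensities of different probe sets depend on their probes, so levels are compared between groups and never between genes.

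**Figure D1:**
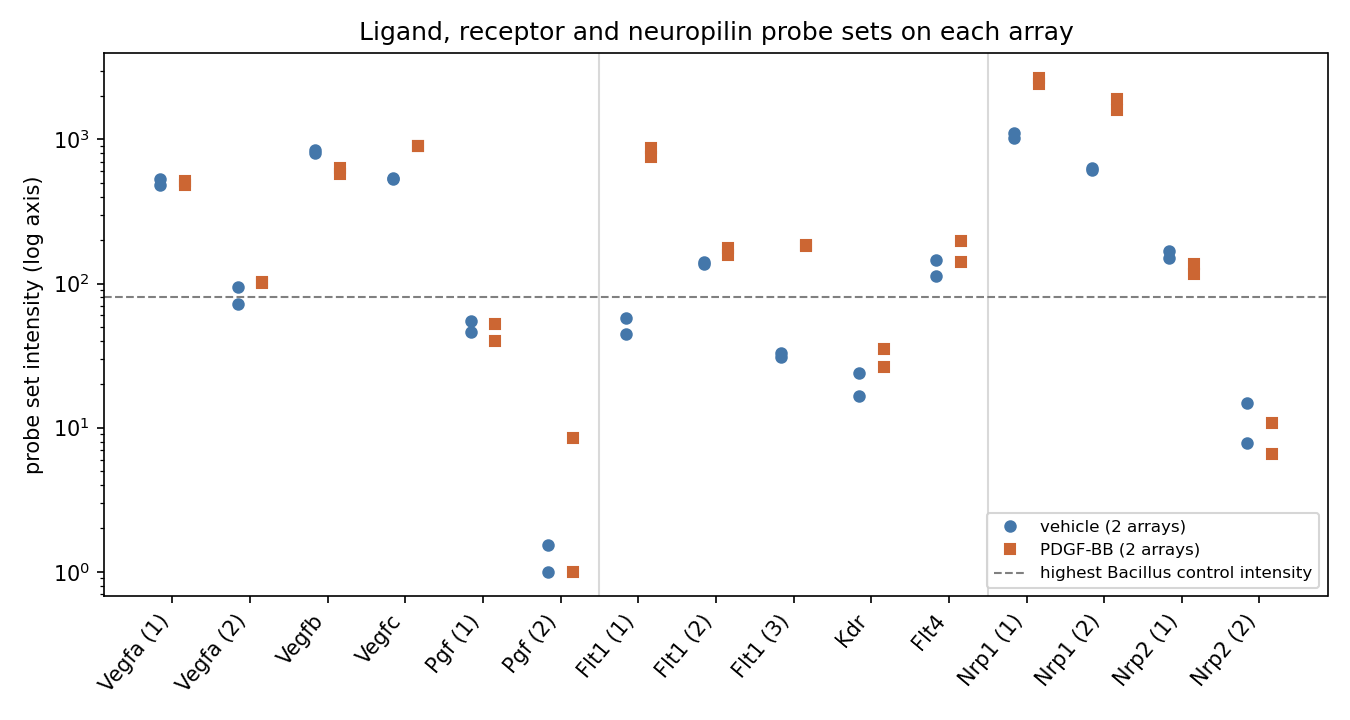
Intensity (log axis) of the 15 probe sets of the 9 genes on each of the 2 vehicle arrays (circles) and 2 PDGF-BB arrays (squares); numbers in brackets order the probe sets of 1 gene from bright to dim, and the dashed line is the highest Bacillus control intensity, 80.3. Flt1 (1) and Flt1 (3) lie below the line with vehicle and above it with PDGF-BB, and both Nrp1 probe sets are separated between the groups above the line.

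The sequence just upstream of the start site is shown for the 3 genes called higher, 250 bases each from RefSeq on GRCr8. The window of Vegfb, called lower, is not shown. Whether the 3 genes share regulation was not tested. All 9 genes matched a RefSeq promoter entry, with 10 start sites in all. Capitals mark matches, on either strand, to the letters searched. These letters were TGACGTCA for the cyclic AMP response element, TGANTCA for AP-1 and GCGNGGGCG for EGR factors. The TATA box was searched as TATAAA, and the core of the hypoxia response element as ACGTG or, in a second form, GCGTG. No matches overlapped in the windows shown.
Flt1, chr12:12333180-12333429, plus strand: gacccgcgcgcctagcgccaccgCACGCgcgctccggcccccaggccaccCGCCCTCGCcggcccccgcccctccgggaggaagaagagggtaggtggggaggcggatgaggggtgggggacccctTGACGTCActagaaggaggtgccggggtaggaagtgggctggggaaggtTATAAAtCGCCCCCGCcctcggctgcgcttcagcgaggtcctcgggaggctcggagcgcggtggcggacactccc
Nrp1, chr19:73256307-73256556, plus strand: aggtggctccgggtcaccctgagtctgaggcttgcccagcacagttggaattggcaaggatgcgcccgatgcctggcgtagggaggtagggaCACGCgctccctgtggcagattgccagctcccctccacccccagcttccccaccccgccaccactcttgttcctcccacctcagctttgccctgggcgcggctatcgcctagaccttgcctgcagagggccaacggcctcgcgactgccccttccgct
Vegfc, chr16:44560888-44561137, minus strand: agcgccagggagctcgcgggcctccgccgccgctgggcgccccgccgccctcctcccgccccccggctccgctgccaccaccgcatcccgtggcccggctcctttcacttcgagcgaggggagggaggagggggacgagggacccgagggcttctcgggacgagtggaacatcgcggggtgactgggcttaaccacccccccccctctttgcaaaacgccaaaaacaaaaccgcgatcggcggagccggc
In Flt1 the cyclic AMP response element begins 124 bases before the start site and the TATA box letters 75 bases before it. The EGR letters occur at 200 and 68 bases before it, and GCGTG at 227, all on the other strand. The letters TGACGTCA were found in 1.59% of all 33469 promoter windows of this length, TATAAA in 12.9% and GCGNGGGCG in 4.29%. Among the 10 windows of the 9 genes, TGACGTCA and TATAAA occurred only in that of Flt1, and GCGNGGGCG in those of Flt1 and Vegfb. GCGTG, present in 25.9% of all windows, was in 6 of the 10, those of Flt1, Kdr, Nrp1, Nrp2, Pgf and Vegfb. The Nrp1 window held no other match, and the Vegfc window held none of these letters. TGANTCA, present in 6.34% of all windows, and ACGTG, present in 16.6%, were in none of the 10. A match is a description of letters and says nothing of binding. The windows of Flt1, Nrp1 and Vegfc were 73.2%, 66.4% and 72.4% G and C, against a median of 51.2% over all windows.

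Among the receptors, Flt1 carried the change. On its brightest probe set (1377113_at) the intensity was 57.2 and 44.4 with vehicle and rose to 875 and 758 with PDGF-BB. Both vehicle arrays were below the Bacillus mark and both PDGF-BB arrays far above it. The log2 fold change was 3.64 (SE 0.14, adjusted p 7.85e-04 by limma), a size that depends on the offset because the vehicle values are not above background. Counted against the background mark instead of the dim vehicle values, the mean of the PDGF-BB arrays was at least 10.1-fold higher (mean log2 intensities, with each vehicle array set to 80.3). A second probe set (1370492_a_at), whose suffix marks probes shared by alternative transcripts of 1 gene, read 33.1 and 30.8 with vehicle and 184 and 182 with PDGF-BB. It rose by 2.06 on the log2 scale (SE 0.09, adjusted p 9.34e-04 by limma), at least 2.28-fold against the background mark. The remaining Flt1 probe set (1369087_at) was above background in both groups, at 137 and 142 with vehicle and 175 and 157 with PDGF-BB. Its groups did not overlap, yet the log2 fold change of 0.23 (SE 0.10, adjusted p 0.173 by limma) did not pass. It passed under the other 3 scalings, at 0.0472 with array medians subtracted, 0.0294 after quantile normalization and 0.0324 after cyclic loess, in a range of 0.0294 to 0.509 over 12 alternatives, and its log2 fold change stayed between 0.16 and 0.34. The probe sets of Flt1 thus differ in the size of the measured difference, and 2 of the 3 passed. Which transcript each one reads was not tested. The calls of the 2 that rose held in all 12 alternatives, the highest adjusted p by limma being 0.0267 and 0.0264.

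The other receptors gave no call. Kdr, the main signalling receptor of endothelium, was at 16.7 and 24.0 with vehicle and 35.1 and 26.3 with PDGF-BB, below the background mark on all 4 arrays. The PDGF-BB values were the higher ones and the groups did not overlap, but at such intensities no level can be read, and the log2 fold change of 0.36 (SE 0.16, adjusted p 0.183 by limma) did not pass. Flt4, known from lymphatic endothelium, was above the mark, at 146 and 113 with vehicle and 140 and 196 with PDGF-BB. These groups overlapped, and PDGF-BB replicate 2 alone was high. The log2 fold change was 0.34 (95% interval -0.21 to 0.88, adjusted p 0.310 by limma).

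Of the neuropilins, Nrp1, the co-receptor of Vegfa and of semaphorin 3A, rose on both of its probe sets. The brighter (1373577_at) read 1029 and 1110 with vehicle and 2680 and 2429 with PDGF-BB, which is 1.24 on the log2 scale (SE 0.10, adjusted p 0.00403 by limma). The other (1370570_at) read 616 and 635 with vehicle and 1914 and 1589 with PDGF-BB, a log2 difference of 1.46 (SE 0.12, adjusted p 0.00423 by limma). On both, PDGF-BB replicate 2 was lower than replicate 1, and still above both vehicle arrays. All 4 arrays lay far above background, and the 95% intervals, 0.97 to 1.52 and 1.12 to 1.79, overlapped. Both calls held in all 12 alternatives, the highest adjusted p by limma being 0.0455 and 0.0432. Nrp2, the co-receptor of Vegfc and of semaphorin 3F, gave no call. Its brighter probe set read 149.9 and 168 with vehicle and 136 and 116 with PDGF-BB. These were lower with PDGF-BB on both arrays, without overlap, but the log2 fold change of -0.30 (95% interval -0.62 to 0.02, adjusted p 0.153 by limma) did not pass. The dimmer Nrp2 probe set was between 6.52 and 14.8 on all arrays, well below the background mark.

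**Figure D2:**
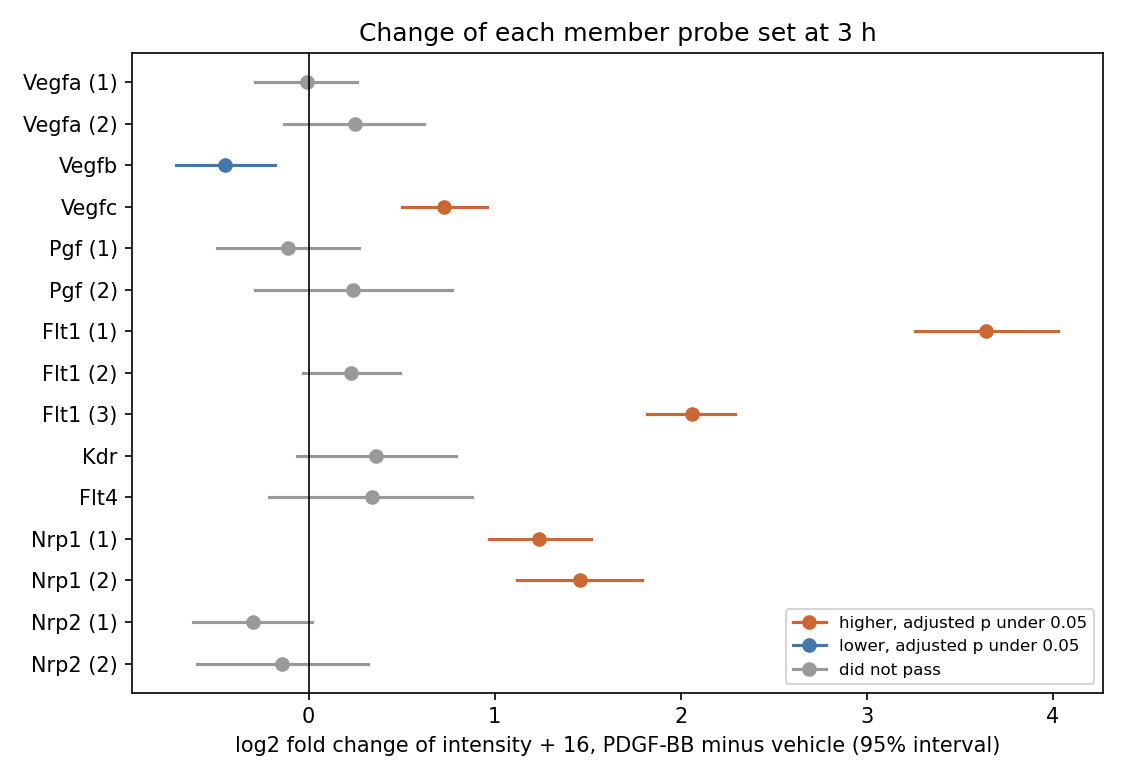
Log2 fold change (PDGF-BB minus vehicle, intensity + 16) of the 15 probe sets with the 95% interval of the limma fit, 2 arrays per group; colours give the call at an adjusted p of 0.05. Flt1 (1) and Flt1 (3), at 3.64 and 2.06, lie farthest to the right, followed by both Nrp1 probe sets (1.46 and 1.24), while Vegfb (-0.45) is the call to the left of 0.

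Among the ligands, Vegfc and Vegfb moved in opposite directions. Vegfc, the ligand of Flt4 and a growth factor of lymphatic vessels, read 544 and 535 with vehicle and 906 and 905 with PDGF-BB. The arrays within each group lay close together, far above background. The log2 fold change was 0.73 (SE 0.08, adjusted p 0.00808 by limma). This call ended without vehicle replicate 1 (0.0826) or vehicle replicate 2 (0.0848), in a range of 3.78e-04 to 0.0848 over 12 alternatives, with log2 fold changes of 0.68 to 0.81. Vegfb, a ligand of Flt1 and Nrp1, read 842 and 807 with vehicle and 630.4 and 573 with PDGF-BB. Both PDGF-BB arrays were lower than both vehicle arrays. The log2 fold change was -0.45 (SE 0.10, adjusted p 0.0385 by limma), close to the threshold. It did not pass with an offset of 1 (adjusted p 0.0682 by limma) or with the replicate block (0.0692). The Vegfb call ended without any 1 of the 4 arrays, at 0.230 and 0.182 when vehicle replicate 1 or 2 was dropped, and at 0.0568 and 0.0941 when PDGF-BB replicate 1 or 2 was. Over 12 alternatives it ranged from 0.00615 to 0.230, and the log2 fold change stayed between -0.51 and -0.37.

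Vegfa, the ligand for which the family is named, did not pass on either probe set. On the brighter (1373807_at) it read 531 and 479 with vehicle and 518 and 484 with PDGF-BB. The groups overlapped fully. The log2 fold change was -0.01, with a 95% interval of -0.29 to 0.26 (adjusted p 0.960 by limma), and its sign turned under each of the 3 other scalings (0.07, 0.01 and 0.08). That interval gives the precision of the estimate with 2 arrays per group. It is not the smallest change that the adjusted test could have called. The dimmer Vegfa probe set (1370081_a_at) lay near background, at 72.4 and 94.9 with vehicle and 103 and 100.4 with PDGF-BB, a log2 difference of 0.25 (95% interval -0.13 to 0.62, adjusted p 0.280 by limma). Pgf was below the background mark on all 4 arrays on both probe sets, at 54.9 and 46.3 with vehicle and 52.1 and 40.0 with PDGF-BB on the brighter. The dimmer Pgf probe set lay at 8.48 or below. Vegfd, the remaining ligand of the family, outside the 9 genes and outside the rule for named genes, read 77.4 and 86.4 with vehicle and 84.8 and 89.8 with PDGF-BB. It was near background and did not pass (log2 fold change 0.08, SE 0.10, adjusted p 0.618 by limma).

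**Figure D3:**
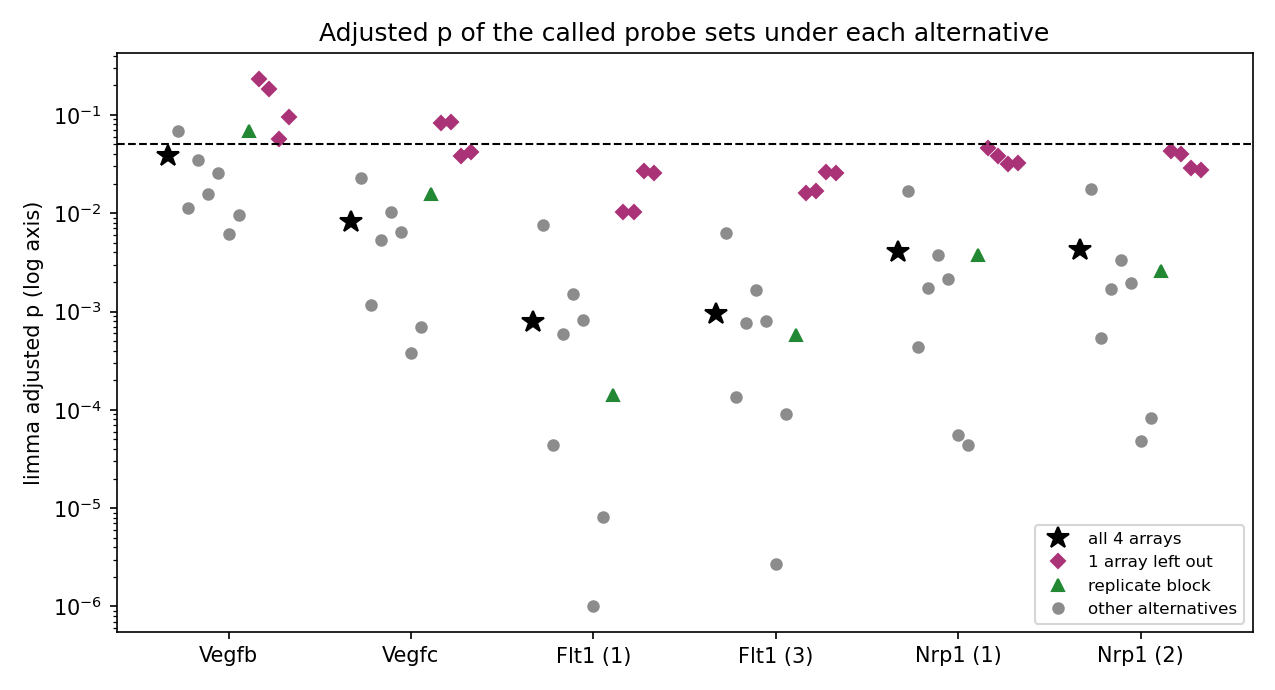
Limma adjusted p (log axis) of the 6 called probe sets with all 4 arrays (stars), with 1 array left out (diamonds), with the replicate number as a block (triangles) and under the other alternatives (grey circles); sideways position within a gene has no meaning, and the dashed line is 0.05. The Flt1 and Nrp1 points all lie below the line, and Vegfc crosses it in 2 fits without a vehicle array. Vegfb crosses it in each fit without 1 array, with the replicate block and with an offset of 1.

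The genes whose 4 log2 values, each minus its vehicle mean, lay nearest to those of the brightest Flt1 probe set were Hs3st1 (a heparan sulfate sulfotransferase, Euclidean distance 0.09), Epcam (an epithelial adhesion molecule, 0.19) and Hk2 (hexokinase 2, 0.22). All had vehicle values below the background mark, like Flt1, so these distances depend on the offset; against the mark they were at least 5.51-fold, 5.93-fold and 8.53-fold higher. The nearest to Vegfb, each at a distance of 0.02, were Alad, Pik3r4 and Plekho1, with log2 fold changes of -0.44, -0.44 and -0.46; their calls, like that of Vegfb, ended in each fit without 1 array, with limma adjusted p-values of up to 0.245, 0.217 and 0.223. With 4 arrays, likeness of this kind mostly restates the size of the change.

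Among regulators of Vegfa transcription and mRNA, increases outnumbered decreases, while Vegfa itself gave no call. Of 16 measured, 8 rose, 1 fell and 7 did not pass, against 12.4% of all genes higher and 15.3% lower. The median log2 fold change was 0.39. The rises include Egln3, named after its value was seen, at 13.5 and 12.9 with vehicle and 45.9 and 33.3 with PDGF-BB. These 4 values all lie below the background mark. Ets1, a transcription factor of vascular cells, read 364 and 376 with vehicle and 3394 and 3291 with PDGF-BB and rose by 3.12 (SE 0.09). Egr1, a zinc-finger immediate early factor, rose by 2.34 (SE 0.09), from 882 and 902 to 4540 and 4628. Zfp36 and Zfp36l1, which bind AU-rich elements and hasten decay of target mRNAs, rose by 1.46 (SE 0.09) and 0.77 (SE 0.09). Hif1a, the oxygen-regulated subunit of hypoxia-inducible factor, read 3045 and 3043 with vehicle and 4630 and 4742 with PDGF-BB and rose by 0.62 (SE 0.09, adjusted p 0.0121 by limma). Its relatives Epas1 and Arnt did not pass on their brightest probe sets (log2 fold changes 0.06 and 0.04, adjusted p 0.693 and 0.903 by limma). The other Epas1 probe set, at 53.3 and 63.9 with vehicle and 149.8 and 125 with PDGF-BB, was called higher (1.04, adjusted p 0.0103 by limma), so the 2 disagree. The member that fell, named after its value was seen, was the prolyl hydroxylase gene Egln2, by 0.42 (adjusted p 0.0495 by limma). Fits without 1 array called fewer genes of the list in both directions. Calls over the whole table fell in these fits too, so the loss is not particular to this list. The list median stayed between 0.33 and 0.45 in them. The calls of Zfp36l1 (0.0806 and 0.0742) and Hif1a (0.111 and 0.108) ended without vehicle replicate 1 or 2, and that of Egln2 without any 1 array (0.0762 to 0.275).

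Genes that respond to hypoxia, among which Vegfa is usually counted, held calls in both directions. Egln1 and Egln3 are also in the list of regulators above, and the rise of Egln3 is counted in both lists. Of 17 measured, 6 rose, 3 fell and 8 did not pass, against 12.4% of all genes higher and 15.3% lower, so the number that fell is near the background. Their median log2 fold change was 0.05, and -0.05 after quantile normalization. Hk2, which phosphorylates glucose, read 43.8 and 29.0 with vehicle and 692 and 678 with PDGF-BB, at least 8.53-fold higher against the background mark. The clock-linked repressor Bhlhe40, like Hk2 below the mark with vehicle, was at least 3.79-fold higher. Ndrg1 rose by 1.20 (SE 0.09) and the glucose transporter Slc2a1 by 0.97 (SE 0.09) on the log2 scale. The 3 that fell, named after their values were seen, were Vldlr, Bnip3 and Kdm3a, by 0.43, 0.42 and 0.51. Fits without 1 array called fewer genes of this list in both directions, as they did over the whole table. The list median stayed between 0.03 and 0.12 in them. Slc2a1 lost its call without vehicle replicate 1, at a log2 fold change of 0.94.

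The list of genes that process, bind or store VEGF had 14 measured, among them also the ligand Vegfd. Of these, 4 rose, 0 fell and 10 did not pass by limma, against 12.4% of all genes higher and 15.3% lower. Their median log2 fold change was 0.32, and 0.18 or 0.21 without vehicle replicate 1 or PDGF-BB replicate 2. At an unadjusted p under 0.05 by limma, 6 were higher and 1 was lower. The share of all genes at that threshold was not counted, so the 6 and the 1 cannot be set against a background. Under each of the 3 other scalings, 1 gene of the list passed as lower, and more probe sets passed as lower over the whole table too. Plat, tissue plasminogen activator, rose by 2.92 (SE 0.09), from 683 and 703 to 5496 and 5209. Adamts1, a matrix protease that binds Vegfa, rose by 0.77 (SE 0.10), the heparan sulfate proteoglycan Gpc1 by 0.63 (SE 0.10) and Furin, a convertase that cleaves the Vegfc precursor, by 0.61 (SE 0.10). Plat was the call that held in every fit without 1 array. The list had fewer calls in each of these fits, and so did the whole table. The limma adjusted p reached 0.0905 for Adamts1, 0.127 for Gpc1 and 0.142 for Furin.

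In the list of genes that act downstream of VEGF receptors, most of which also serve other receptor tyrosine kinases including those of PDGF, 10 of the 29 measured rose, 2 fell and 17 did not pass, against 12.4% of all genes higher and 15.3% lower, with a median of 0.25. Shb, an adaptor that binds Kdr, rose by 2.16 (SE 0.12), from 284 and 292 to 1463 and 1239. Nfatc1, a calcineurin-dependent factor below the background mark with vehicle, was at least 2.85-fold higher. Rcan1, a calcineurin inhibitor, rose by 1.90 (SE 0.09) and the phosphatase gene Ptpn1 by 1.54 (SE 0.10). Plcg1, the phospholipase that Kdr recruits, fell by 0.48 (SE 0.08, adjusted p 0.0229 by limma), and the adaptor Gab1, named after its value was seen, by 1.01 (SE 0.09, adjusted p 0.00460 by limma). Fewer were called in each fit without 1 array, in both directions, as over the whole table. The list median stayed between 0.22 and 0.28 in these fits. The call of Plcg1 ended without any 1 array (0.0568 to 0.177), and that of Gab1 without vehicle replicate 1 or 2 (0.0512 and 0.0526).

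On their brightest probe sets, the partners of the neuropilins gave a single call. Of 10 class 3 semaphorins and plexins measured, 0 rose, 1 fell and 9 did not pass, against 12.4% of all genes higher and 15.3% lower, so the number that fell is near the background. Their median log2 fold change was -0.04, and 0.03 with array medians subtracted. At an unadjusted p under 0.05, limma had 1 of the 10 higher and 2 lower. The share of all genes at that threshold was not counted, so these numbers have no background beside them. Sema3f, the semaphorin that binds Nrp2, read 2254 and 2084 with vehicle and 1608 and 1393 with PDGF-BB and fell by 0.53 (SE 0.12, adjusted p 0.0379 by limma), a call that ended without any 1 array (0.0528 to 0.214). Its other probe set read 996 and 848 with vehicle and 503 and 422 with PDGF-BB and was lower too (-0.97, adjusted p 0.0136 by limma). The semaphorin gene Sema3b and the plexin gene Plxnd1 had log2 fold changes of -0.38 and -0.23 (adjusted p 0.0981 and 0.175 by limma). The plexin gene Plxna3, named after its value was seen, did not pass on its brightest probe set (-0.11, adjusted p 0.526 by limma). The other of its 2 probe sets was called lower. For Plxna2, a receptor partner of Nrp1, the value was 0.33 (adjusted p 0.0824 by limma), which passed under each of the 3 other scalings (0.0303 to 0.0412). This probe set lay near background, at 59.1 and 66.4 with vehicle and 85.4 and 80.1 with PDGF-BB. The dimmer Plxna2 probe set, below the background mark on all 4 arrays, was called higher (1.67, adjusted p 0.0168 by limma). Sema3c was bright, at 2215 with vehicle and 2471 with PDGF-BB, and did not pass (adjusted p 0.301 by limma), and Sema3a, the ligand of Nrp1, was at 7.38 and 8.24, below the background mark.

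**Figure D4:**
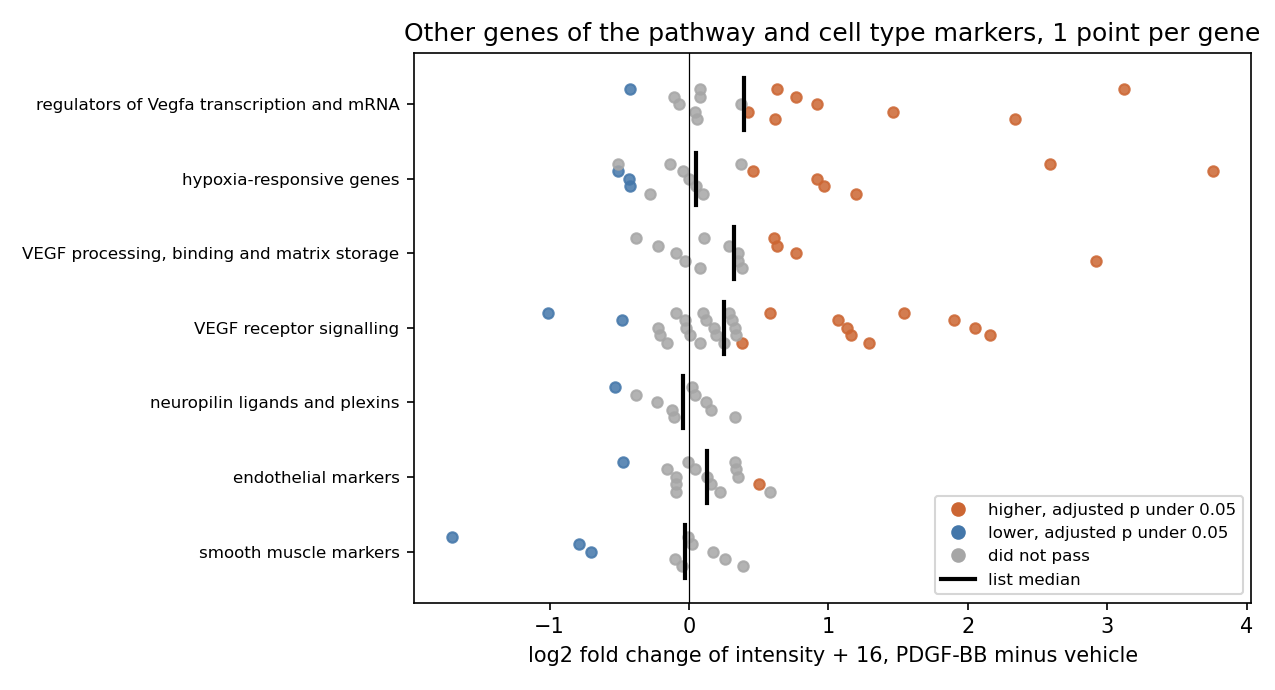
Log2 fold change (PDGF-BB minus vehicle, intensity + 16) of the other genes of the pathway and of the cell type markers, 1 point per gene on its brightest probe set; black bars are list medians and colours give the call at an adjusted p of 0.05. Farthest to the right are Hk2 (3.76, from vehicle values below the background mark) among hypoxia-responsive genes and Ets1 (3.12) among regulators of Vegfa, while the semaphorins and plexins stay between -0.53 and 0.33.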

How the data were processed

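The deposited table holds 1 linear intensity per probe set and array, judged from the values; which software, background correction and scaling the authors used is not given in the sources used here. Sample titles gave groups and replicate numbers. A platform annotation of 2016 gave 1 gene symbol for 17279 of 23707 probe sets, several for 373 and none for 6055; 57 control probe sets were left out. All 9 members matched a RefSeq gene identifier. A gene stands as the probe set with the highest mean intensity over the 4 arrays, so the choice can depend on the PDGF-BB values, as it did for Flt1.

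Values were tested as log2(intensity + 16), with no further scaling, with limma 3.58.1 (lmFit, eBayes; two-sided) under R 4.3.3, and p-values were adjusted by Benjamini-Hochberg across the 23707 probe sets. The fit had 2 residual degrees of freedom and a variance prior of 2.40 degrees of freedom. The procedure was checked on simulated data. The members, the gene lists and the tests were chosen with earlier results of these data known, so the lists are described by counts and medians only. Text names all members, up to 4 genes per list by smallest p (for the marker lists, called ones only), and genes fixed by name (Cdh5 and Tek were not analysed here). Other offsets, scalings, filters, a variance trend, the replicate block and fits without 1 array were tried. The number of arrays limits the precision.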

Additional observations from a re-analysis of the deposited data

How the results depend on the processing

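Over the 12 alternatives, the 6 called member probe sets gave 72 values, all in the direction of the fit with 4 arrays; 64 stayed past the threshold and 8 did not, 6 of them for Vegfb and 2 for Vegfc. The member probe sets called higher numbered 4 to 6. The count called lower, 1 with Vegfb alone, was 0 with an offset of 1 (limma adjusted p 0.0682), 0 with the replicate block (0.0692), and 0 in all 4 fits without 1 array. Member genes called numbered 4, and 2 to 3 without 1 array. Probe sets called over the whole table ranged from 1272 to 4223 without 1 array, against 5779. The replicate numbers are shared only as numbers: the deviations of same-numbered arrays had a correlation of -0.0978 across probe sets, and with the replicate block 4954 probe sets were called. Signs that turned, in values that never passed: the brighter Vegfa probe set at 0.07 with array medians subtracted, 0.01 after quantile normalization, 0.08 after cyclic loess, and -0.08 to 0.06 without 1 array; without 1 array the Pgf probe sets at -0.25 to 0.03 and -0.02 to 0.50, the dimmer Nrp2 at -0.33 to 0.04, Arnt at -0.17 to 0.25 and Sema3a at -0.17 to 0.25; Pecam1 at 0.22 with an offset of 1, 0.06 with array medians subtracted and -0.36 to 0.34 without 1 array; Tagln at -0.03 after quantile normalization, -0.11 after cyclic loess and -0.01 to 0.06 without 1 array. Apart from the settings named, the cause of a lost call was not tested. Fits without 1 array have a single array in 1 group, which is assumed to vary like the other. Intensities below the Bacillus mark limit Kdr, Pgf and the dimmer Nrp2 probe set.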
